A study of Mus musculus with 8 samples.

Results

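Glutathione transferases were examined at the transcript level, by RNA sequencing, in bone marrow-derived macrophages of the mouse, cells that differentiate from marrow precursors in culture. The group consists of 10 genes, Gsta3, Gsta4, Gstm1, Gstm2, Gstp1, Gsto1, Gstk1, Mgst1, Mgst2 and Mgst3, among 17492 genes with a row in the deposited table. They were chosen by gene symbol, as family members, with results of the comparison between the 2 media already known. Their differences between the media are therefore a description: no p-value is given for any of them, and how many were past the threshold is given only beside the share of all genes. All 8 libraries came from cells of the C57BL/6 strain. In 4 of them (serine/glycine-free) the medium lacked serine and glycine, although their treatment label names only serine deficiency. In the other 4 (control) the medium was normal and the treatment label reads untreated. No label gives the age or sex of the mice, the length of the withdrawal, any stimulus, or whether the libraries of a group came from separate animals or dishes. Tests on the other genes below therefore measure only the spread between these libraries, which may be technical.

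Glutathione transferases join glutathione, a small peptide of glutamate, cysteine and glycine, to reactive compounds and so make them easier to export. Glycine is thus a building block of their co-substrate, and serine can supply the carbon skeleton of its cysteine. The soluble enzymes fall into classes named by Greek letters, and a separate membrane-bound family, MAPEG, holds the microsomal transferases together with enzymes that make leukotrienes and prostaglandins. Many of these genes are known as targets of NRF2, a transcription factor that answers oxidative and electrophilic stress and is held back by KEAP1.

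RefSeq promoter sequences on GRCm38.p6 were available for 9 of the 10 genes (not Gsta4), each window running from 250 bases before to 50 bases after the transcription start, with 2 windows each for Gstm1 and Mgst1. They were searched on both strands for TGACNNNGC, the core of the element that NRF2 binds with small MAF proteins, and for TGAGTCA, the site of AP-1 factors. The first motif occurred in the windows of Gsta3 and Mgst1 and the second in those of Gstp1 and Mgst2, and no match of one overlapped a match of the other. Over all windows, 12.4% of 32851 held the first motif and 5.2% the second. Counted by gene, as for the genes here, the shares were 14% and 5.95% of 27025 genes. The 100-base stretches that hold the matches are shown because these 4 genes were the ones with a match in their windows. Each runs 5′ to 3′ on the gene's own strand, ends before the annotated start, and has the match in capitals. The RefSeq window of Mgst2 belongs to a start inside the annotated span of that gene, not to its outermost start. The stretches lie at chr1:21240418-21240517 (plus strand, Gsta3), chr6:138140425-138140524 (plus, Mgst1), chr3:51661079-51661178 (plus, Mgst2) and chr19:4037934-4038033 (minus, Gstp1).

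Gsta3: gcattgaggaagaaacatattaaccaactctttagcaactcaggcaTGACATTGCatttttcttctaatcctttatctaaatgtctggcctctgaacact
Mgst1: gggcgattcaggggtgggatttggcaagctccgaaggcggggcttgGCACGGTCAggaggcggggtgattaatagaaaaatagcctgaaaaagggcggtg
Mgst2: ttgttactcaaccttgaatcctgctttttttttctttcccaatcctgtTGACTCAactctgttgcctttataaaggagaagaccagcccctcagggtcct
Gstp1: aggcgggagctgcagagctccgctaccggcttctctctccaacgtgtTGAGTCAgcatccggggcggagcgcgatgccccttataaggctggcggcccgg

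Counted from the start, the match began at -121 in Gsta3, -56 in Mgst1 (on the opposite strand), -52 in Mgst2 (on the opposite strand) and -74 in Gstp1. These are matches of letters and not measured binding. In Gstp1 the letters gc follow the match, giving TGAGTCAGC. That stretch differs from the first motif, TGACNNNGC, only in a G where the motif has C after TGA. In Mgst2 the letters ac follow the capitals, giving TGACTCAAC, which differs from that motif only in an A where it has G. Each motif was searched only as written, so near matches of this kind were not counted. Gstm1, Gstm2, Gsto1, Gstk1 and Mgst3 held neither string in these windows. Of 14 other family and related genes tested below, 11 had a window, 2 with the first motif (Gstm5 and Clic5) and 2 with the second (Gstm5 and Clic1).

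Library totals ran from 17565291 to 18201599 estimated counts, and no 2 libraries of a group agreed within sampling noise (chi-square per degree of freedom 1.42 to 3.61 over 12 pairs). The macrophage markers of the list were all detected, 8 of 8, and summed to 18900 to 19400 CPM (read counts relative to the size of the library, which was scaled by TMM, edgeR's trimmed mean) in control and 18900 to 19200 CPM in serine/glycine-free libraries. All 8 nevertheless passed the test: Csf1r (log2 change 0.41), Cd68, Mertk and Lyz2 rose, and Itgam (-0.61), Adgre1, Cd14 and Fcgr1 fell. Markers of neutrophils (8 of 8 with a row and none at 0 in all libraries) summed to 0.827 to 1.12 CPM in control 2 to 2.29 CPM without serine and glycine. They were led by S100a8, the only one tested, which rose (log2 change 1.30, adjusted p = 9.0e-06), and the part of such cells in the results was not tested. Mast cell, B cell, T and NK cell, stromal, erythroid and liver markers each summed to at most 2.06 CPM in any library and dendritic markers to at most 1.96 CPM. Some of these sums rest on part of the list. Only 3 of 6 mast cell and basophil, 3 of 6 T and NK cell and 4 of 5 erythroid markers had a row. The endothelial list reached 51.8 to 73.0 CPM, nearly all from Pecam1, which macrophages also express and which fell (log2 change -0.38, adjusted p = 6.0e-10). How levels followed gene length also moved with the media. For this, each gene's log2 level was taken relative to its mean over the 8 libraries. The slope of that relative level on log2 effective length was 0.00275 to 0.0394 in control and -0.0533 to 0.00155 in serine/glycine-free libraries, with no overlap. Such slopes compare the libraries with each other and do not give how level follows length within a library. In such bulk samples, fewer cells of a type and less RNA per cell cannot be told apart.

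Of the 10 glutathione transferases, 8 had enough reads to be fitted, and 6 of those (Gsta3, Gstm1, Gsto1, Mgst1, Mgst2 and Mgst3) were higher without serine and glycine. Gstp1 and Gstk1 were close to level, and none was lower. Those 6 were past the threshold of 0.05 on the p-value adjusted over all genes (quasi-likelihood test of edgeR), against 15.9% of the 11700 genes tested that passed upward, 17.3% downward and 33.2% in either direction. In the same 6 every serine/glycine-free library lay above every control library, which held for 14.5% of all genes tested. With each library's length trend removed, the same 6 were past the threshold, against 32.5% of all genes tested in either direction. Their log2 changes were then 1.63 for Gsta3, 0.69 for Gstm1, 0.25 for Gsto1, 0.62 for Mgst1, 0.54 for Mgst2 and 0.46 for Mgst3. Gstp1 and Gstk1 turned to -0.084 and -0.042. Nothing is read from these counts, because the genes were proposed with this comparison known. The median log2 change of the 8 was 0.60, beside 0.0074 over all genes tested. No gene of the 8 owed its place in the fit to the high group alone, since the lowest count of any of them in any library was 27.

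**Figure D1:**
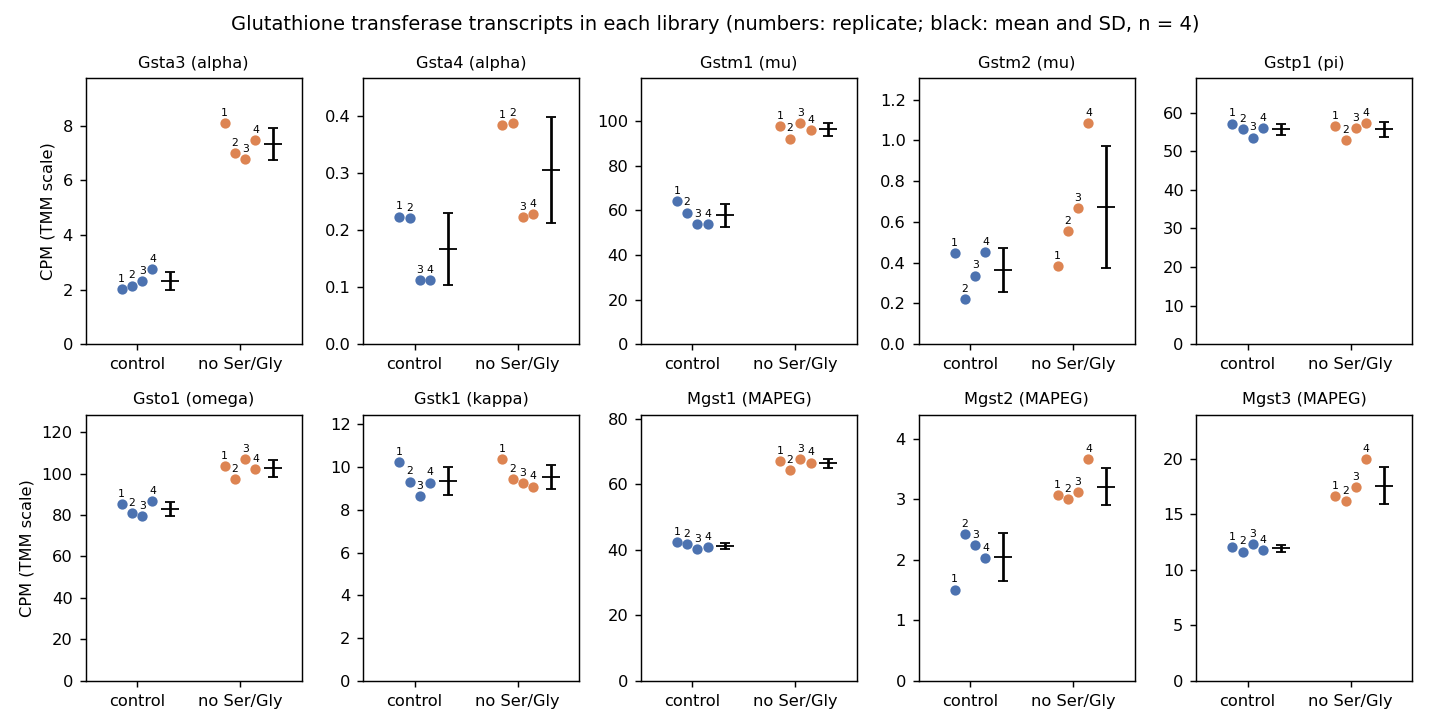
Transcript level of each of the 10 glutathione transferases in every library, in CPM on the TMM scale (vertical axes start at 0 and differ between panels). Numbers mark the replicate, black bars the mean and SD of 4 libraries. The 2 groups are apart for Gsta3, Gstm1, Gsto1, Mgst1, Mgst2 and Mgst3 and overlap for Gsta4, Gstm2, Gstp1 and Gstk1.

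The alpha class held the largest difference. Gsta3 encodes an alpha-class enzyme known in mice for detoxifying the epoxide of aflatoxin, and lies on chromosome 1 at 21240565 to 21265575. RefSeq lists all 10 as protein-coding. Its level was 2.01, 2.15, 2.30 and 2.76 CPM in control replicates 1 to 4 and 8.12, 6.99, 6.79 and 7.49 CPM in serine/glycine-free replicates 1 to 4. Even the lowest serine/glycine-free library was well above the highest control. The mean went from 2.31 ± 0.323 to 7.35 ± 0.589 CPM (SD, n = 4), a log2 change of 1.67 (SE 0.12) or 3.18-fold. The estimated counts behind this were modest, 36 to 49 in control and 122 to 148 in serine/glycine-free libraries. Gsta4, whose enzyme conjugates the lipid aldehyde 4-hydroxynonenal, (chromosome 9, 78191966 to 78209349) was near the detection limit and was not fitted. It had 4, 4, 2 and 2 counts in control and 7, 7, 4 and 4 counts in serine/glycine-free libraries, so that the groups touched at 4 counts. Its summed counts, 12 and 22, gave a ratio of 1.83 with an exact 95% interval of 0.868 to 4.06 that covers counting error only.

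Gstm1 encodes a mu-class enzyme, a class that conjugates a broad range of electrophiles. It was at 64.3, 59.1, 53.9 and 53.8 CPM in control replicates 1 to 4 and at 97.8, 92.2, 99.3 and 95.9 CPM in serine/glycine-free replicates 1 to 4. The groups were far apart, and the spread was wider in control, where replicate 1 was highest. The mean went from 57.8 ± 5.01 to 96.3 ± 3.07 CPM (log2 change 0.74, SE 0.044). Gstm1 lies on chromosome 3 at 108012250 to 108017973, inside a cluster of mu-class genes. Of its neighbours, Gstm4 and Gstm5 did not pass the threshold. Gstm4 (108030571 to 108045179) was at 8.75 ± 0.741 and 8.95 ± 1.13 CPM (log2 change 0.032, 95% interval -0.15 to 0.22, adjusted p = 0.828). Gstm5 (107895854 to 107898685) was at 11.1 ± 0.632 and 12.1 ± 0.839 CPM (0.12, interval -0.034 to 0.27, adjusted p = 0.236). Both intervals end below the change of Gstm1, and the difference between the genes was not tested. Gstm2, on the same cluster at 107981702 to 107986420, was too low to be fitted, with 8, 4, 6 and 8 counts in control and 7, 10, 12 and 19 in serine/glycine-free libraries. The groups overlapped, and the highest value stood in serine/glycine-free replicate 4. The ratio of its summed counts, 48 to 26, was 1.84 (exact 95% interval 1.12 to 3.10 for counting error only, which leaves out the spread between libraries). Gstm3, Gstm6 and Gstm7 of the cluster stayed below the filter as well. The counts of Gstm1 and Gstm2 were whole in all libraries, so no shared fraction of a read was visible in them. Whole counts cannot exclude that reads common to similar genes were assigned to 1 of them.

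Gstp1, the pi-class gene (chromosome 19, 4035411 to 4037912), was close to level. It stood at 57.1, 55.8, 53.6 and 56.1 CPM in control and 56.4, 52.8, 56.0 and 57.4 CPM in serine/glycine-free libraries, so that the 2 ranges covered each other almost fully. The log2 change was 0.00016 (SE 0.040, 95% interval -0.080 to 0.081). Gstp1 was the only one of the 10 with estimated counts that were not whole, in 5 of 8 libraries, the mark of reads shared between similar genes. The fractions belonged to its neighbour Gstp2 (4040288 to 4042221). In control replicate 3, for instance, 955.29 counts were given to Gstp1 and 0.71 to Gstp2, which sum to 956. The 2 genes summed to a whole number in all 8 libraries, within a tolerance of 1e-06, and Gstp2 received at most 1.32 counts, so the sharing barely touched the level of Gstp1. Gstp3, the third gene there, had 5 to 11 counts per library and was not tested.

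Gsto1 (chromosome 19, 47854973 to 47864790) encodes an omega-class enzyme, which reduces dehydroascorbate and thiol adducts rather than conjugating typical electrophiles. Its level was 85.2, 80.8, 79.6 and 86.6 CPM in control and 103.7, 97.3, 106.8 and 102.1 CPM in serine/glycine-free libraries. All serine/glycine-free values were above all control values, by a smaller ratio than in the other 5 genes that differed. The mean went from 83.1 ± 3.36 to 102.5 ± 3.95 CPM (log2 change 0.30, SE 0.036). Gstk1, the kappa-class gene (chromosome 6, 42245935 to 42250441), whose enzyme resides in mitochondria and peroxisomes, overlapped between the groups. It was at 10.2, 9.32, 8.64 and 9.28 CPM in control and 10.4, 9.43, 9.24 and 9.09 CPM in serine/glycine-free libraries (log2 change 0.026, 95% interval -0.14 to 0.19).

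All 3 microsomal genes were higher. Mgst1 lies on chromosome 6 (138140527 to 138156755), Mgst2 on chromosome 3 (51636912 to 51682675) and Mgst3 on chromosome 1 (167371966 to 167393841). Mgst1, an enzyme of the endoplasmic reticulum and outer mitochondrial membrane that also reduces lipid peroxides, had the tightest values of the 10. It was at 42.3, 41.6, 40.3 and 40.8 CPM in control and 67.1, 64.4, 67.6 and 66.7 CPM in serine/glycine-free libraries (log2 change 0.69, SE 0.040), with a coefficient of variation of 2.21% and 2.11%. Mgst2, which can make leukotriene C4, was at 1.51, 2.43, 2.24 and 2.03 CPM in control and 3.07, 2.997, 3.12 and 3.66 CPM in serine/glycine-free libraries (log2 change 0.64, SE 0.16). Its groups were separate but its error was the largest of the 8, on 27 to 64 counts per library. Mgst3, whose product is a microsomal transferase and peroxidase, was at 12.0, 11.6, 12.3 and 11.8 CPM in control and 16.7, 16.2, 17.4 and 19.9 CPM in serine/glycine-free libraries (log2 change 0.56, SE 0.071). Mgst2, Mgst3, Gstp1 and Gstm2 were each highest in serine/glycine-free replicate 4, where Gstk1 was lowest of its group and Mgst1 was not highest. That library also had the lowest slope of relative log2 level on log2 effective length, -0.053. Mgst2 and Mgst3 have the shortest effective lengths of the 10, 481 and 488 bases, where the median of genes tested was 2716. Gstp1, Gstk1, Mgst1 and Gstm2 have 597, 783, 796 and 899 bases. The part of gene length in these values was not tested. Without serine/glycine-free replicate 4 the log2 changes were 0.58 for Mgst2 and 0.49 for Mgst3. With each library's length trend removed they were 0.54 and 0.46.

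**Figure D2:**
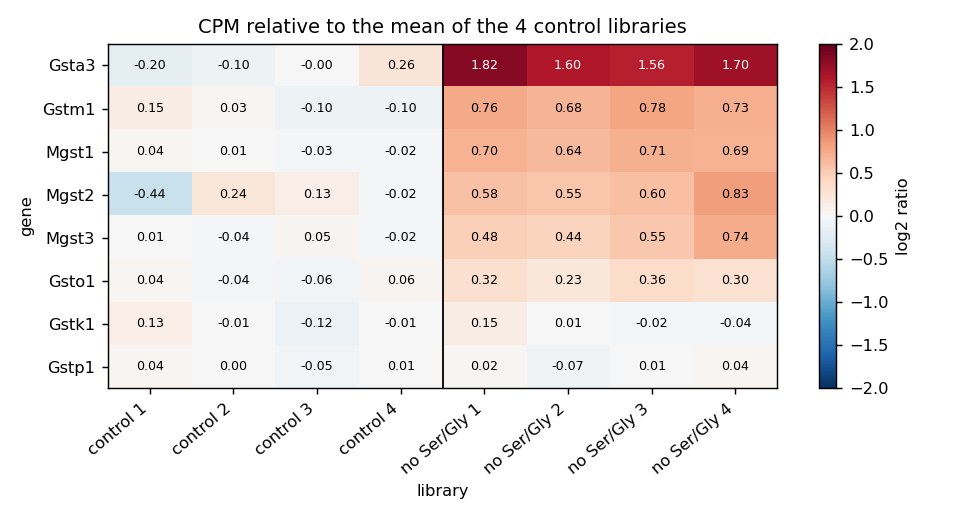
Level of the 8 fitted genes in each library as log2 of its ratio to the mean of the 4 control libraries (colour and printed value; rows are genes, columns libraries). Gsta3 is between 1.56 and 1.82 in the serine/glycine-free libraries, Mgst3 between 0.44 and 0.74 with the highest value in replicate 4, and Gstp1 stays between -0.075 and 0.045 in all 8.

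Levels can be compared between genes only after scaling for length, here in the authors' TPM (a length-scaled share of all transcripts). In control libraries Gstp1 was the most abundant at 169.8 ± 2.85 TPM, then Gsto1 at 146.4 ± 4.80 TPM. Mgst1 (94.3 ± 1.45 TPM) and Gstm1 (91.7 ± 7.23 TPM) followed and overlapped in range. Below them came Mgst3 (44.6 ± 1.43 TPM), Gstk1 (21.8 ± 1.29 TPM), Mgst2 (7.65 ± 1.57 TPM) and Gsta3 (3.35 ± 0.490 TPM), each without overlap with the next. Gstm2 and Gsta4, at 0.735 and 0.373 TPM, overlapped each other. The 4 most abundant genes thus came from 4 classes (pi, omega, MAPEG and mu), and the gene with the largest fold difference was among the scarcest.

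The order at the top was different without serine and glycine. Gsto1 ranged from 171 to 184 TPM and Gstp1 from 161 to 168 TPM, so Gsto1 led with no overlap. Gstm1 (149.4 ± 4.55 TPM) and Mgst1 (148.3 ± 3.06 TPM) were next and overlapped, and Gsta3 at 10.5 ± 0.845 TPM reached the range of Mgst2 at 12.0 ± 0.995 TPM. Summed over the 10 genes, levels were 567 to 593 TPM in control and 732 to 765 TPM in serine/glycine-free libraries, a ratio of 1.29. In CPM the sum went from 263.9 ± 9.004 to 359.6 ± 10.9, a ratio of 1.36. Within the summed TPM, the share of Gstp1 went from 29.2% ± 0.219 to 22.1% ± 0.207 and that of Gsta3 from 0.578% ± 0.0902 to 1.40% ± 0.112. Gstm1 accounted for 15.8% ± 1.003 and 19.9% ± 0.310, and Mgst1 for 16.2% ± 0.197 and 19.8% ± 0.266.

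**Figure D3:**
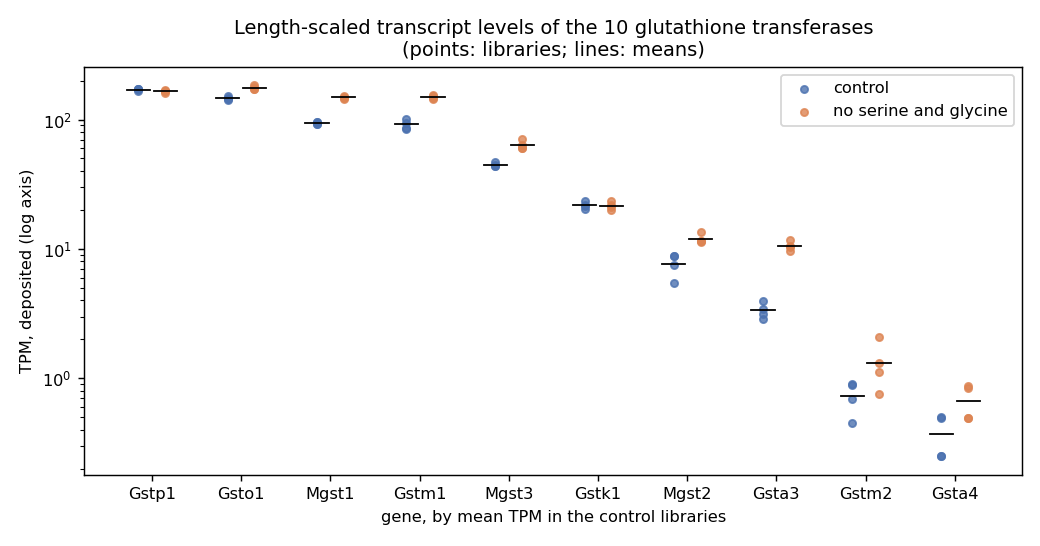
Deposited TPM of the 10 genes in each library on a logarithmic axis, ordered by the control mean (points are libraries, lines group means). In control Gstp1 (165.54 to 171.73 TPM) is above Gsto1 (141.83 to 152.41 TPM); without serine and glycine the order is the opposite, and Gsta3 overlaps Mgst2.

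Other family and related genes, not among those 10, were examined from a list that was also written with earlier results of these data known. The list took in relatives such as Clic1, Clic4, Clic5, Gdap1 and Eef1g. It left out the MAPEG genes Ltc4s and Alox5ap, which are in the leukotriene list below. Its share of calls is therefore not that of the rest of the family. Of 26 listed, 24 had a row, and 14 were tested; the other 10 had at most 12 counts in any library. Among the 14, 2 rose, 1 fell and 11 did not pass, that is 21.4% called against 33.2% of all genes tested, with a median log2 change of 0.0011. Ptges, the inducible prostaglandin E synthase of the MAPEG family, rose from 5.03 to 6.17 CPM over the control libraries to 10.3 to 11.03 CPM over the serine/glycine-free libraries (log2 change 0.95, SE 0.090, adjusted p = 9.2e-12). The theta-class gene Gstt3 rose from 3.14 ± 0.232 to 4.24 ± 0.384 CPM (0.43, SE 0.13, adjusted p = 0.00765), with no overlap of the groups. Eef1g, a translation elongation factor subunit that carries a transferase-like domain, fell from 582.5 ± 12.7 to 493.1 ± 4.53 CPM (-0.24, adjusted p = 3.2e-11).

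Several well-expressed relatives had narrow intervals around 0. Hpgds, the sigma-class transferase that makes prostaglandin D2, was at 212.8 ± 2.89 and 210.6 ± 3.37 CPM (log2 change -0.015, 95% interval -0.069 to 0.039, adjusted p = 0.715). Gstz1, the zeta-class enzyme of tyrosine breakdown, was at 26.2 ± 1.44 and 25.7 ± 1.25 CPM (-0.026, interval -0.14 to 0.084). The chloride intracellular channel genes Clic1 (-0.045, adjusted p = 0.204) and Clic4 (-0.013, adjusted p = 0.756), whose products share the transferase fold, did not pass, although Clic1 passed downward with the length trend removed (-0.099, adjusted p = 0.000565). Gstt2 (0.23, interval -0.074 to 0.54), Gstcd (-0.11), Ptges2 (0.015), Gdap1 (-0.43, adjusted p = 0.111) and Clic5 (0.24) did not pass either.

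**Figure D4:**
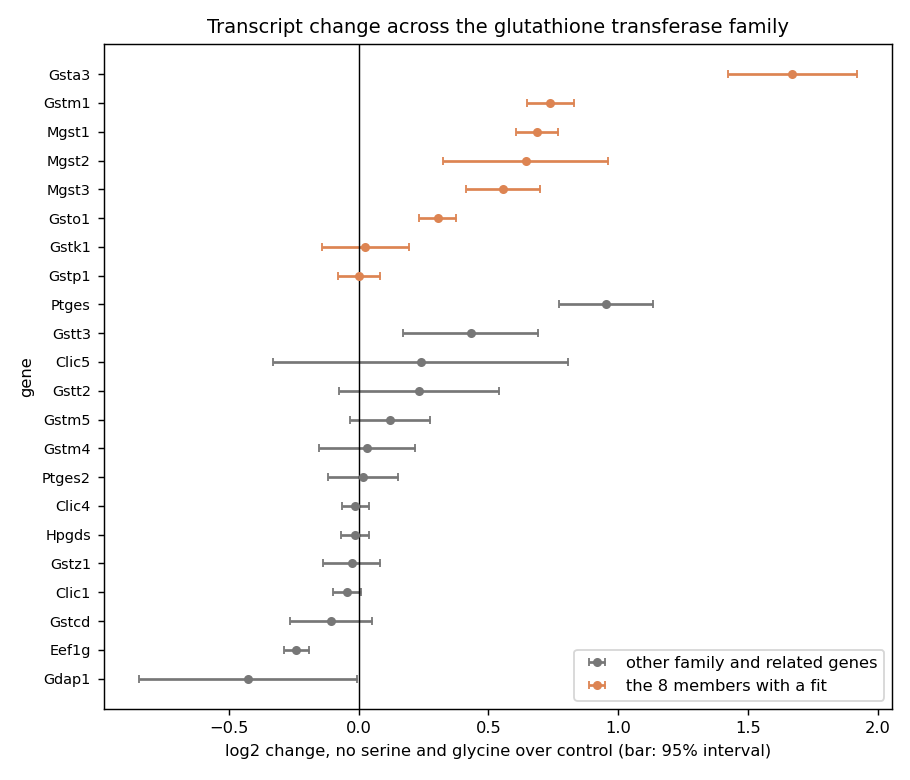
Log2 change without serine and glycine over control with its 95% interval, for the 8 fitted glutathione transferases (orange, a description) and 14 other family and related genes (grey). Gsta3 has the largest value at 1.67, and among the grey genes Ptges (0.95) and Gstt3 (0.43) passed upward and Eef1g (-0.24) downward.

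Genes on either side of the transferase reaction were taken from lists written by function, and their shares of calls stand beside 33.2% of all genes tested. The lists were written with earlier results of these data known. Their shares of calls are therefore a description, and nothing is read from how far they stand from that of all genes. The adjusted p-values printed for their genes come from the fit over all genes and do not allow for that choice. All 6 genes that supply or regenerate glutathione were tested: 5 rose, 0 fell and 1 did not pass (83.3% called, median log2 change 0.22). Gclm, the regulatory subunit of glutamate-cysteine ligase, was at 77.1 to 84.9 CPM in control and 170 to 181 CPM in serine/glycine-free libraries (1.12), and the catalytic subunit Gclc was at 39.99 ± 1.015 and 48.6 ± 2.15 CPM (0.28, adjusted p = 1.2e-06). The cystine importer Slc7a11 (0.56), glutathione reductase Gsr (0.16, adjusted p = 7.2e-05) and G6pdx, which supplies NADPH (0.093, adjusted p = 0.00443), also rose. In log2 TPM with limma, 4 genes of this list passed, and G6pdx was the one that lost its call. Gss, glutathione synthetase, the step that adds glycine, was at 17.5 ± 0.674 and 18.1 ± 1.84 CPM (0.044, interval -0.090 to 0.18, adjusted p = 0.661).

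Of 19 tested genes that export or trim the conjugates, 6 rose, 1 fell and 12 did not pass (36.8% called, near the 33.2% of all genes tested, median 0.098). The conjugate exporter Abcc3 was at 113 to 118 CPM in control and 156 to 158 CPM in serine/glycine-free libraries (0.45, adjusted p = 7.3e-17). The peptidases Anpep (0.27, adjusted p = 2.7e-09) and Dpep2 (0.29, adjusted p = 2.3e-06) rose, and Kyat3, a cysteine-conjugate lyase, fell (-0.55, adjusted p = 0.00144). Abcc1, the exporter of leukotriene C4 and many conjugates, passed narrowly (0.098, adjusted p = 0.00859) and lost its call when either control replicate 1 or control replicate 2 was left out (adjusted p 0.0534 and 0.054) and in log2 TPM with limma (adjusted p = 0.238).

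The leukotriene and prostanoid list, which covers the pathway that supplies leukotriene A4 to Mgst2 along with prostanoid enzymes and receptors, had 9 genes in the fit, of which 2 rose, 3 fell and 4 missed the threshold (55.6% called, median -0.012). Alox5, which starts leukotriene synthesis, was at 17.0 to 19.9 CPM in control and 12.3 to 13.4 CPM in serine/glycine-free libraries (-0.49, SE 0.067, adjusted p = 7.3e-08), and fell. Ltc4s, the dedicated leukotriene C4 synthase of the MAPEG family, had 11, 13, 14 and 5 counts in control and 19, 14, 32 and 25 counts in serine/glycine-free libraries, and rose (log2 change 1.06, SE 0.29, adjusted p = 0.00395) although the groups overlapped. Its partner Alox5ap, also a MAPEG protein, was at 90.0 ± 1.92 and 89.3 ± 2.33 CPM (-0.012, interval -0.080 to 0.056), and Lta4h stood at 0.021 (adjusted p = 0.750). Tbxas1, thromboxane synthase, rose (0.34), and the leukotriene receptor gene Cysltr1 (-0.26) and the phospholipase gene Pla2g4a (-0.14) fell.

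Of 20 tested genes for aldehyde and quinone detoxification, 8 rose, 2 fell and 10 did not pass (50% called, median 0.093). The aldo-keto reductases Akr1b8 (0.94, SE 0.063) and Akr1b3 (0.57, SE 0.027) rose, as did the carbonyl reductase Cbr3 (0.45) and Esd (0.66), which completes glutathione-dependent formaldehyde removal. Nqo1, the quinone reductase often read as an NRF2 target, was scarce at 0.948 ± 0.366 and 1.23 ± 0.312 CPM and did not pass (0.37, interval -0.15 to 0.89, adjusted p = 0.285). The list of NRF2 and its regulators had 11 genes in the fit, with 3 that rose, 3 that fell and 5 past neither way (54.5% called, median -0.042). Nfe2l2, which encodes NRF2, was at 376 to 398 CPM in control and 409 to 425 CPM in serine/glycine-free libraries (0.12, adjusted p = 0.000147). Keap1 (-0.13, adjusted p = 0.0033) and Bach1 (-0.18, adjusted p = 5.3e-06), a repressor at the same elements, fell, as did Arnt (-0.17), the partner of the AHR receptor, and the KEAP1-binding receptor gene Sqstm1 rose (0.30).

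Over the 8 libraries, the summed CPM of the 10 genes was most closely followed by Esd (Pearson r = 0.994 on log2 values), the small GTPase gene Rab32, Ass1 of arginine synthesis, the mannose 6-phosphate receptor gene M6pr and the lysosomal protease gene Ctsb (r = 0.993 for the last). The search covered 9745 other genes averaging 5 CPM or more. These points share the difference between the 2 media, and 321 genes had an r over 0.95.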

How the data were processed

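The authors deposited 1 table with estimated counts, FPKM and TPM per gene and library. The submitters' processing notes list the tools BWA, Bowtie2 and RSEM, without versions, and the build GRCm38.p6. Per the labels' protocols, RNA came from a Trizol extraction and libraries from oligo-dT beads. The deposited estimated counts (8.06% to 8.47% not whole per library) were rounded and tested with edgeR 4.0.16 in R 4.3.3: filterByExpr (minimum count 10, total 15), TMM scaling, a quasi-likelihood F test of serine/glycine-free against control with 6 residual degrees of freedom, and Benjamini-Hochberg adjustment over 11700 genes at 0.05. SE and 95% intervals come from the F statistic. A count of 0 allows up to 3 counts, 0.1645 to 0.1715 CPM per library, for counting error only. FPKM, by the authors, gave effective lengths through its ratio to the counts; TPM by the authors was used for levels between genes. Columns holding the authors' averages per group, 6 in all, were set aside. Coordinates and promoters are RefSeq's on GRCm38.p6, matched by Entrez ID.

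The members and lists were chosen with earlier results of these data known. Named were the 10 members, all tested relatives, and of each further list up to 4 genes past the threshold with the smallest adjusted p plus genes set by name; G6pdx was named after its value was seen, to account for its list, as were the markers. Lists are described by counts, with no set test. The alternatives changed the scaling (size factors of DESeq2, or library size only), the filter (none, or means of 5 CPM and above), the tool (DESeq2 1.42.0, or limma-voom with limma 3.58.1), the rounding (down), the unit (limma on log2(TPM + 0.5)) and the threshold (0.01). Others added the replicate number as a block, left out 1 library at a time, or removed each library's trend with gene length. The steps were tested on simulated data.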

Additional observations from a re-analysis of the deposited data

Results flagged for a closer look

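In groups of 4 libraries, 4 of the 104 sets of values screened had 1 library set far from the others, and chance gives about 1 in 20. The summed CPM of the 10 glutathione transferases was 343.4 in serine/glycine-free replicate 2, below 363.6 to 367.2 in the other serine/glycine-free libraries and above all control libraries. Lta4h was at 49.41 CPM in control replicate 3, against 52.34 to 52.94 CPM in the other controls. Anpep was at 94.21 CPM in control replicate 1, against 98.51 to 99.16 CPM, and Akr1b3 at 410.8 CPM in serine/glycine-free replicate 4, against 386.2 to 389.9 CPM.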

How the results depend on the processing

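Over 18 alternatives, 6 to 10 of the 10 glutathione transferases were fitted, and 4 to 7 passed the threshold upward and 0 downward. Over the same settings, 22.4% to 36.4% of all genes tested passed in either direction. The 4 came from requiring a mean of at least 5 CPM, which removed Gsta3 and Mgst2 from the fit. That setting left 6 of the 10 fitted, and 36.4% of all genes tested passed. The 7, of 9 fitted, came from leaving out serine/glycine-free replicate 1, where 30.6% of all genes tested passed. That library was the lowest of its group for Gstm2 at 7 counts. Gstm2 then entered the fit through the serine/glycine-free libraries alone, with 10, 12 and 19 counts against 4 to 8 in control. It was also fitted with no filter and with any 1 control replicate left out, and did not pass there. Nothing is read from its call. Wherever they were fitted, the 6 higher genes kept the direction of their log2 change, from 1.52 to 1.77 for Gsta3 and from 0.25 to 0.33 for Gsto1. Gstp1 lay between -0.084 (length trend removed) and 0.024 and Gstk1 between -0.042 and 0.070. The log2 ratio of the summed level was 0.446 in CPM and 0.369 in deposited TPM. The count of conjugate export and trimming genes past the threshold fell from 7 to 4 with a mean of at least 5 CPM, since fewer genes were tested. Calls over all genes numbered 3882, and 2767 to 3901 over the alternatives. No pairing by the numbers in the labels was seen. Same-numbered deviations correlated at -0.0992, 0.0348, 0.114 and -0.155, within the -0.17 to 0.188 of differently numbered libraries. So few weak correlations cannot exclude a pairing. With the replicate block, 3655 genes passed (31.2% of those tested), and the same number of transferases (6) and of their relatives (3) as without it. Of 41 other genes followed, Abcc1 and Clic1 changed their call, as given above. G6pdx, not among the 41, lost its call in log2 TPM with limma. Depth limits Gsta4 and Gstm2, with at most 19 counts per library, and Mgst2.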
